A study of Mus musculus with 12 samples.

Results

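The time course from day 7 to day 14 of Pneumocystis infection was examined as the change that wildtype and IFNAR-/- mice had in common. All 12 arrays of the study entered it, 12 of 12, as 4 groups of 3 mice: wildtype at day 7, wildtype at day 14, IFNAR-/- at day 7 and IFNAR-/- at day 14. Each mouse had received the fungus Pneumocystis through the trachea, so no uninfected mouse stands behind any value. IFNAR-/- mice lack the receptor for type I interferons throughout the body, and day 7 and day 14 mice were different animals. The cells were CD11c+ cells of digested lungs, taken with magnetic beads at a stated purity above 90% with under 5% lymphocytes. Per the labels the samples are separate mice, and age, sex and background strain are not given in the sources used here. The shared change is the mean of the day 14 minus day 7 difference in wildtype and that in IFNAR-/-, on the log2 scale. The unit is the log2 ratio of a gene to about its own median over the 12 arrays. It allows comparisons of a gene across mice, not of 1 gene with another.

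CD11c is carried in the lung by alveolar macrophages, which clear surfactant lipids from the airspace, and by dendritic cells. Pneumocystis grows in the airspace and is cleared by macrophages once T cells help them, and macrophages exposed to type 2 cytokines take on an alternatively activated state with arginase and eosinophil-attracting chemokines. Type I interferons act through IFNAR on response elements in the promoters of interferon-stimulated genes, and other interferons and IRF factors can act on the same genes.

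A gene was called changed at a limma adjusted p under 0.05 by Benjamini-Hochberg over 18193 genes. It was said to agree when, in addition, all 3 day 14 arrays lay on the same side of all 3 day 7 arrays in wildtype and, in the same direction, in IFNAR-/-. By this test 2969 genes changed over both genotypes (16.3%), 1161 upward (6.38%) and 1808 downward (9.94%). Of all genes 1544 agreed (8.49%), 596 of them risen (3.28%) and 948 fallen (5.21%). Arrays without overlap in the same direction in both genotypes, with no test asked for, were found for 1817 genes (9.99%), and arrays without overlap in opposite directions for 429 (2.36%). Within wildtype alone day 7 and day 14 did not overlap for 31.1% of genes, and within IFNAR-/- alone for 34.0%. A change of at least 2-fold was present in 334 agreeing genes, 63 risen and 271 fallen, so the large agreeing changes were mostly falls. The median size of the change over agreeing genes was 0.59 on the log2 scale. The change was larger in IFNAR-/- for 925 of them and larger in wildtype for 619.

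Across genes the wildtype and the IFNAR-/- change correlated at r = 0.44, and 62.6% of the 18193 genes had the same sign in both. These 2 changes share no array, and genes are not independent replicates, so the value is a description. Tested alone, 1451 genes changed in wildtype (7.98%) and 2244 in IFNAR-/- (12.3%). Both tests called 468 genes, 433 in the same direction and 35 in opposite directions. The 433 are 29.8% of the wildtype calls and 19.3% of the IFNAR-/- calls. The time change itself differed between genotypes for 451 genes (2.48%) by the interaction contrast of the same limma fit, and 346 of these had opposite signs. The 5' over 3' control signal, a measure of RNA quality, was lower in wildtype day 14 than in wildtype day 7 arrays, and with it in the model 154 genes changed in wildtype, and 3 differed between genotypes, namely Adamtsl4, Cd69 and Slc36a2, the last named after its value was seen. The other differences between genotypes given below as passing did not pass in that fit. Of the agreeing genes 26 were among the 451, so they moved the same way in both genotypes but by different amounts.

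These counts leaned on single arrays to different degrees. Whichever array was left out, 1193 of the 1544 agreeing genes kept their call, and leaving out 1 array gave between 1341 and 1846 agreeing genes. The wildtype count fell to 716, 786 and 889 without day 7 mouse 1, 2 and 3, and to 860 and 773 without day 14 mouse 2 and 3. The IFNAR-/- count fell to 1094, 1486 and 1385 without day 7 mouse 1, 2 and 3, and to 1436 and 1450 without day 14 mouse 2 and 3. The count of genes that differed between genotypes fell to 180 and 167 without wildtype day 7 mouse 1 and 2, to 230 and 222 without wildtype day 14 mouse 2 and 3, to 168 and 138 without IFNAR-/- day 7 mouse 1 and 2, and to 262 without IFNAR-/- day 14 mouse 3.

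**Figure D1:**
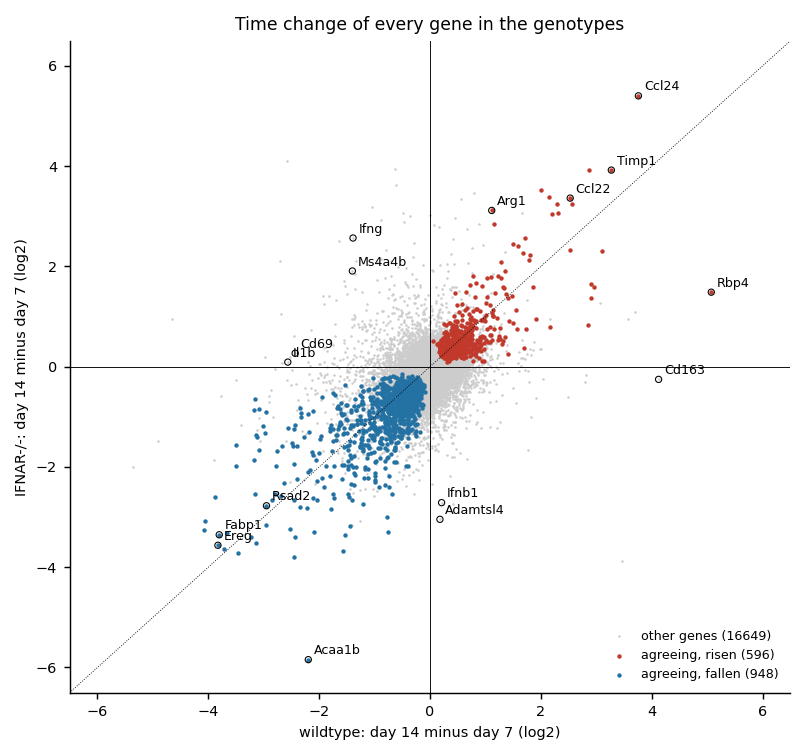
Day 14 minus day 7 (log2) of each of 18193 genes in wildtype (horizontal axis) against IFNAR-/- (vertical axis), with the 596 agreeing genes that rose in red, the 948 that fell in blue, the others in grey and the dotted line where both changes are equal. Ccl24 lies at 3.76 and 5.40, Acaa1b at -2.20 and -5.84, while Il1b, Cd69, Ifnb1, Ifng, Adamtsl4, Ms4a4b and Cd163 lie near an axis or in the quadrants of opposite sign.

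Some arrays stood apart in ways the groups do not explain, and in wildtype several control signals followed the day. IFNAR-/- day 7 mouse 3 had the highest medians of lung epithelial (2.05), endothelial (2.76) and fibroblast markers (1.93), and wildtype day 7 mouse 1 the next highest at 1.44, 1.93 and 0.75. The other 10 arrays lay between -0.46 and 0.36. The former alone carried transcripts of the Y chromosome: Eif2s3y was 2.89 there and -0.05 to 0.20 elsewhere. IFNAR-/- day 14 mouse 2 had the widest spread of all arrays, with an interquartile range of 0.556. The 5' over 3' control signal lay between -0.912 and -0.184 in wildtype day 14 arrays and between 0.078 and 0.178 in wildtype day 7 arrays, without overlap. In IFNAR-/- it did not move in that direction, at 0.064 to 0.163 on day 14 and -0.52 to 0.11 on day 7. The poly-A control signal, from RNA added during labelling, was 0.811 to 2.127 in wildtype day 7 arrays and -2.699 to -1.884 at day 14, and -2.9 to 1.365 and -1.806 to 0.151 in IFNAR-/-. The signal of the 18S ribosomal RNA controls was -0.219 to 0.079 in wildtype day 7 arrays and 0.476 to 2.846 at day 14. The interquartile range was 0.176 to 0.193 and 0.267 to 0.342 on these days. In IFNAR-/- the days overlapped in both of these measures. Of the 1544 agreeing genes 1346 still passed without IFNAR-/- day 7 mouse 3 and IFNAR-/- day 14 mouse 2 (both arrays that stand apart), 1108 without both arrays high in structural markers, 1292 after adding the 5' over 3' signal to the model and 868 after adding the poly-A signal. All 1544 kept their sign in each of these fits. For the fits that leave out arrays this follows from the rule for agreement, so it is no evidence of robustness there.

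Chemokines held large changes in both directions. Of 28 measured chemokines 9 rose, 6 fell and 13 did not pass, where 6.38% of all genes rose and 9.94% fell. Agreement was met by 10 of the 28 (35.7%), against 8.49% of all genes. The median of the list was 0.00, between large rises and large falls, against 0.03 over all genes. The rises were led by Ccl24, an eosinophil attractant, Ccl22 and Ccl17, which share the receptor CCR4 of type 2 and regulatory T cells, and Ccl12, Ccl8 and Ccl2, which act on monocytes and related cells.

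Ccl24 stood at -1.70, -3.20 and -2.45 in wildtype day 7 mice and at 1.46, 1.31 and 1.16 in wildtype day 14 mice. The IFNAR-/- arrays read -4.16, -4.84 and -4.05 on day 7 and 0.75, 1.00 and 1.41 on day 14. Every day 14 array lay above every day 7 array of either genotype, and the lowest levels were those of IFNAR-/- day 7. The shared rise was 4.58 ± 0.23 (SE, n = 3 arrays per group), 23.9-fold (limma, Benjamini-Hochberg adjusted p 9.07e-06), and it was the largest of any agreeing gene. The change was 1.64 larger in IFNAR-/- (95% interval 0.62 to 2.67), with an adjusted p of 0.0893 for that difference.

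Ccl22 stood at -1.04, -1.22 and -0.88 in wildtype day 7 mice and at 1.47, 0.85 and 2.13 at day 14. Without the receptor the values were -2.40, -2.24 and -2.59 on day 7, then 0.53, 1.08 and 1.24 on day 14. The groups of each genotype were separate, and the rise of 2.94 ± 0.20 (SE) was 7.70-fold (limma, Benjamini-Hochberg adjusted p 5.12e-05). Ccl17 rose by 2.77 ± 0.35, from -0.30, -1.92 and -0.61 to 2.28, 0.23 and 1.52 in wildtype and from -2.15, -1.74 and -1.82 to 0.99, 1.37 and 1.68 in IFNAR-/-. Wildtype day 14 mouse 2 was low for its group and still above all day 7 mice.

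The monocyte attractants started from different levels in the genotypes. Ccl2 was 0.38, -0.09 and -1.24 in wildtype day 7 mice and 1.06, 0.52 and 0.91 at day 14, against -2.64, -2.60 and -3.10 in IFNAR-/- day 7 mice and 0.08, -0.24 and 0.35 at day 14. It rose by 2.00 ± 0.24 (SE), and although the arrays of a genotype did not overlap, IFNAR-/- day 14 mice lay within the range of wildtype day 7 mice. Ccl12 rose by 2.69 ± 0.40 and Ccl8 by 2.01 ± 0.37, with limma adjusted p of 0.00135 and 0.00447 by Benjamini-Hochberg. The receptor of Ccl2, Ccr2, rose by 0.81 ± 0.21. Ccl7 rose by 1.86 ± 0.39 but did not agree, because wildtype day 7 mouse 1, at 0.86, lay within the 0.74 to 0.89 of wildtype day 14.

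In the other direction, Cxcl1 and Cxcl2, the main attractants of neutrophils in mice, fell by 2.53 ± 0.36 and 1.97 ± 0.20 (SE). Cxcl2 was 0.23, 0.04 and -0.01 in wildtype day 7 mice and -3.24, -3.27 and -2.51 at day 14. Its day 7 values in IFNAR-/- were 0.48, 0.31 and 0.37, and its day 14 values were 0.00, -1.23 and -0.16. The groups did not overlap in either genotype, yet the fall differed between them by 2.24 ± 0.41 (limma, Benjamini-Hochberg adjusted p 0.0216, and 0.15 with the 5' over 3' signal in the model), being -3.09 in wildtype and -0.85 in IFNAR-/-. The interferon-induced T cell attractant Cxcl10 also fell, by 2.10 ± 0.32.

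The promoters of Cxcl1 and Cxcl2 are shown because both genes fell and both hold GGGANTTTC, a form of the site that NF-kB factors bind, in the 250 bases before their start. The letters were sought on both strands with overlaps allowed and are in capitals. The motif was present in 4 of 20 chemokine promoters (20.0%) and in 0.948% of 14452 promoters of measured genes. Sequences are from RefSeq on build GRCm38.p6, read 5' to 3' on the strand of the gene; Cxcl1 is at chr5:90890995-90891244 and Cxcl2 at chr5:90903649-90903898, both on the plus strand.
Cxcl1: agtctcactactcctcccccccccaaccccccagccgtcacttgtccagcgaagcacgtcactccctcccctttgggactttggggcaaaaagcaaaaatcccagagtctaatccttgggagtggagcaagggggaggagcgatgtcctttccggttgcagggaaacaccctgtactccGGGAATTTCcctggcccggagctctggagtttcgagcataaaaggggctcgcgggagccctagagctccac
Cxcl2: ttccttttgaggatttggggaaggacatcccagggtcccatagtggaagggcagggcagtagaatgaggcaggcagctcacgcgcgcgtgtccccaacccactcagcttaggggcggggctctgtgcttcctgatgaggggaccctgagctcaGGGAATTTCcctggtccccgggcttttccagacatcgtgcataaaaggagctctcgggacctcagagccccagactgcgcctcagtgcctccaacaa
The match in Cxcl1 starts at -71 and that in Cxcl2 at -97 from the start site. The letters were not in this window of Ccl17 and Ccl22, which rose, nor in that of Cxcl10 and Tnf, which fell, and binding was not measured.

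More genes of alternative activation rose than fell. Of 22 measured members 11 rose and 2 fell, where 6.38% and 9.94% of all genes did. Of the list 7 (31.8%) agreed, against 8.49% of all genes, with a median shared change of 0.57. The median was 0.63 in wildtype and 0.52 in IFNAR-/-, against 0.02 over all genes in each. Ccl17 and Ccl24 are members of this list as well as of the chemokines.

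Arg1, the arginase that marks this state, was -0.58, -0.15 and -0.59 in wildtype day 7 mice and 0.41, 0.86 and 0.75 at day 14. IFNAR-/- mice had -2.00, -2.61 and -3.67 on day 7 and 0.32, 0.11 and 0.63 on day 14. The day 14 values of the genotypes overlapped while those of day 7 did not. It rose by 2.11 ± 0.24 (SE), 4.33-fold (limma, Benjamini-Hochberg adjusted p 0.000387), and the rise was 2.00 larger in IFNAR-/- (95% interval 0.96 to 3.05, adjusted p of 0.0528). Pdcd1lg2, the PD-1 ligand PD-L2, rose by 2.77 ± 0.31 and 6.82-fold. It went from -1.69, 0.27 and -0.49 to 2.01, 1.52 and 1.02 in wildtype and from -3.12, -3.53 and -2.86 to -0.34, 0.62 and 0.37 in IFNAR-/-, with no overlap in either.

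Clec10a, a galactose-type lectin of macrophages and dendritic cells, rose by 1.17 ± 0.20 (SE), and the tyrosine kinase gene Matk by 1.28 ± 0.18. The falls in this list were Klf4, by 1.12 ± 0.25, and Stat6, the transcription factor through which interleukin 4 acts, by 0.47 ± 0.09 with agreement in both genotypes. Retnla changed by 1.92 in wildtype and -0.63 in IFNAR-/-, with a shared value of 0.64 ± 0.33 that did not pass. Chil3, another classical marker, had a shared value of -0.11 and did not pass either. Nos2, which is not in this list, changed by -0.62 in wildtype and 3.63 in IFNAR-/- in the fit of single probe sets. Its shared value there was 1.5 ± 0.51 (SE) and did not pass (limma, Benjamini-Hochberg adjusted p 0.0835). Cd163, the haemoglobin scavenger receptor, was called over both genotypes at 1.93 ± 0.38, but the change was 4.12 in wildtype and -0.25 in IFNAR-/-, and that difference passed (limma, Benjamini-Hochberg adjusted p 0.0181, and 0.148 with the 5' over 3' signal in the model).

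Repair and matrix genes held some of the largest agreeing rises. Of 27 measured members 7 rose and 8 fell, where 6.38% and 9.94% of all genes did. Of the list 9 (33.3%) agreed, against 8.49% of all genes. Timp1, an inhibitor of matrix metalloproteinases, was -0.80, -2.11 and -2.08 in wildtype day 7 mice and 1.45, 1.64 and 1.73 at day 14. For IFNAR-/- the day 7 arrays gave -2.59, -2.70 and -3.89 and the day 14 arrays 0.51, 0.73 and 1.34. All day 14 arrays lay above all day 7 arrays, and the rise of 3.59 ± 0.28 (SE) was 12.1-fold (limma, Benjamini-Hochberg adjusted p 9.7e-05). The collagenase Mmp13 rose by 2.62 ± 0.56 and the membrane protease Adam8 by 2.14 ± 0.23. Among the falls, Ereg, a growth factor for the EGF receptor, fell by 3.70 ± 0.66, Thbs1, the matrix protein thrombospondin, by 2.51 ± 0.35 and Gpnmb by 1.15 ± 0.16.

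Other large agreeing rises were Ocstamp, a membrane protein needed for fusion of osteoclasts, by 3.40 ± 0.33 (SE) and Il33, an alarmin cytokine of the interleukin 1 family, by 2.70 ± 0.49. Il33 was 0.08, -2.13 and -3.51 in wildtype day 7 mice and 0.90, 0.86 and 2.00 at day 14, so the day 7 mice spread widely. The IFNAR-/- arrays read -2.39, -1.71 and -1.95 on day 7 and 0.34, -0.10 and 0.60 on day 14, a narrow range on each day. Rbp4, the retinol carrier, rose by 3.28 ± 0.55, with a change of 5.07 in wildtype and 1.49 in IFNAR-/-, where day 14 mouse 3 was at 2.44 and the other 2 at 0.06 and -0.09, and without a difference past the threshold (limma, Benjamini-Hochberg adjusted p 0.11). The kinase gene Alpk2 rose by 2.76 ± 0.22 and the transcript 4930459C07Rik by 2.91 ± 0.20.

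**Figure D2:**
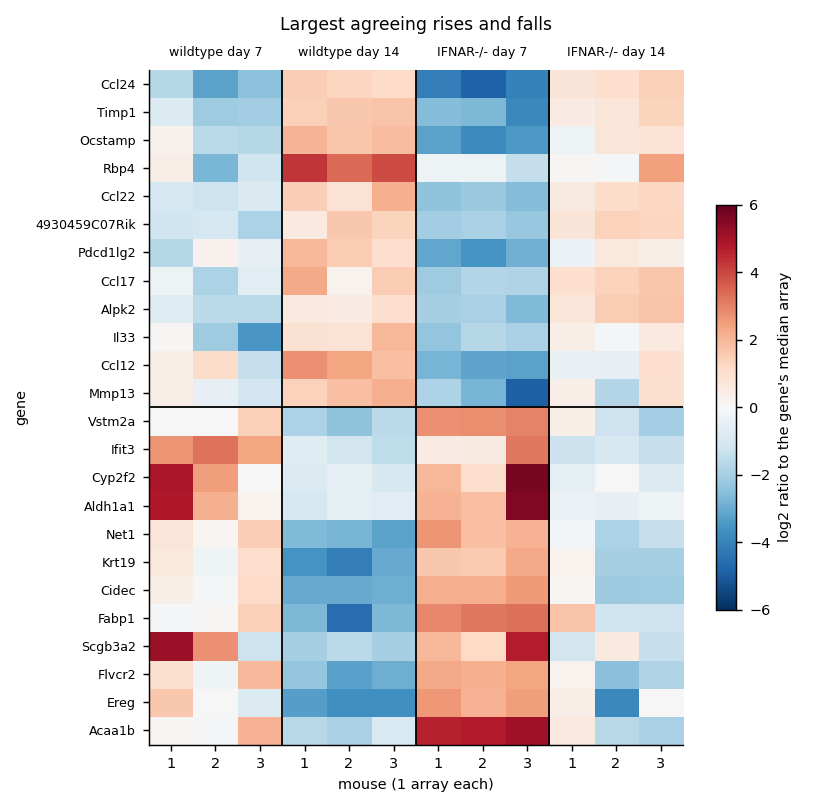
Log2 ratio to the gene's median array (colour) of the 12 largest agreeing rises (above the line) and the 12 largest agreeing falls (below it) on each of the 12 arrays, 3 mice per group. IFNAR-/- day 7 arrays are the lowest for Ccl24 (-4.16, -4.84 and -4.05), while Scgb3a2, Cyp2f2 and Aldh1a1 are highest on wildtype day 7 mouse 1 and IFNAR-/- day 7 mouse 3.

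Interferon-stimulated genes fell over both genotypes, and some of them fell in each, also in mice without the type I interferon receptor. Of 35 measured members 23 fell, where 9.94% of all genes did, and 12 did not pass, and all 35 shared changes lay below 0. Agreement was met by 12 (34.3%), against 5.21% of all genes for agreeing falls. The median was -0.90 for the shared change, -1.58 in wildtype and -0.25 in IFNAR-/-. All 35 members were below 0 in wildtype and 25 of 35 in IFNAR-/-. Past the threshold 10 members differed between genotypes, where 2.48% of all genes did. Without both arrays that stand apart 17 differed, and after adding the 5' over 3' signal to the model the 10 differences did not pass. Without IFNAR-/- day 7 mouse 3 and IFNAR-/- day 14 mouse 2 the number that fell was 22, and 23 without both arrays high in structural markers.

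Ifit3 was 2.66, 3.25 and 2.39 in wildtype day 7 mice and -0.74, -1.10 and -1.51 at day 14. Without the receptor the values were 0.48, 0.53 and 3.18 on day 7, then -1.29, -0.97 and -1.37 on day 14. IFNAR-/- day 7 mouse 3 lay among the wildtype day 7 mice, and the groups of each genotype were separate. The fall of 3.24 ± 0.41 (SE) was 9.47-fold (limma, Benjamini-Hochberg adjusted p 0.000628). It was -3.88 in wildtype and -2.60 in IFNAR-/-, a difference of 1.28 with a 95% interval from -0.52 to 3.07.

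Rsad2, the antiviral enzyme viperin, was 2.05, 3.29 and 1.82 in wildtype day 7 mice and -0.41, -0.74 and -0.54 at day 14. Its day 7 values in IFNAR-/- were 0.51, 0.51 and 1.53, and its day 14 values were -1.65, -1.73 and -2.40. Each IFNAR-/- group lay below the wildtype group of its day, and the falls of -2.95 and -2.77 were close, with a difference of 0.18 (95% interval -1.01 to 1.36). The shared fall was 2.86 ± 0.27 (SE), and all 3 probe sets of the gene fell. Ifit1 fell by 2.69 ± 0.31, by more in IFNAR-/- (-3.29) than in wildtype (-2.09) without a difference past the threshold (limma, Benjamini-Hochberg adjusted p 0.343).

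Regulators and sensors of the pathway were among the agreeing falls. Irf7, the factor that amplifies interferon production, was 2.80, 3.65 and 2.60 in wildtype day 7 mice and -0.10, 0.06 and -0.27 at day 14. IFNAR-/- mice had -0.08, 0.11 and 1.23 on day 7 and -0.89, -0.57 and -1.48 on day 14, so IFNAR-/- day 7 mice 1 and 2 lay near the wildtype day 14 mice and mouse 3 above them. It fell by 2.26 ± 0.26 (SE). Oas3, which makes the messenger that activates RNase L, fell by 2.25 ± 0.20, and by less in IFNAR-/- than in wildtype (limma, Benjamini-Hochberg adjusted p 0.0438 for the difference, and 0.306 with the 5' over 3' signal in the model). The cytosolic RNA sensor Ifih1 fell by 1.28 ± 0.10, from 1.01, 1.27 and 0.78 to -0.53, -0.54 and -0.37 in wildtype and from 0.41, 0.52 and 0.29 to -0.42, -0.70 and -0.87 in IFNAR-/-. Ddx58, the sensor RIG-I, fell by 0.84 ± 0.10.

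The endosomal receptors for RNA fell too. Tlr7 fell by 1.04 ± 0.13 (SE) and Tlr3 by 1.22 ± 0.15, with agreement for both and all probe sets in the same direction. Ifnb1, the gene of interferon beta, went another way: it was -0.38, -0.33 and -0.22 in wildtype day 7 mice and -0.55, 0.04 and 0.20 at day 14. For IFNAR-/- the day 7 arrays gave 2.44, 3.65 and 2.08 and the day 14 arrays -0.20, 0.31 and -0.08. IFNAR-/- day 7 mice were the only high group, and the change differed between genotypes by -2.92 ± 0.48 (limma, Benjamini-Hochberg adjusted p 0.0141, and 0.196 with the 5' over 3' signal in the model). Ifnar1 itself, on 2 probe sets, had a shared value of 0.15 ± 0.25 that did not pass.

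Promoters of 4 interferon-stimulated genes that agreed are shown because they hold GAAANNGAA, the core repeat of an interferon-stimulated response element, in the 250 bases before the start. The letters were sought on both strands, with overlaps allowed, and are in capitals. Of 24 promoters matched to this list 11 held the motif (45.8%), against 6.37% of 14452 promoters of measured genes. Among all agreeing genes it was in 7.50% of the fallen and 7.28% of the risen, near the share of all promoters. Sequences are from RefSeq on build GRCm38.p6, 5' to 3' on the strand of the gene. Ifit3 is at chr19:34583279-34583528 and Ifit1 at chr19:34640639-34640888 on the plus strand, Rsad2 at chr12:26456453-26456702 and Oas3 at chr5:120777660-120777909 on the minus strand.
Ifit3: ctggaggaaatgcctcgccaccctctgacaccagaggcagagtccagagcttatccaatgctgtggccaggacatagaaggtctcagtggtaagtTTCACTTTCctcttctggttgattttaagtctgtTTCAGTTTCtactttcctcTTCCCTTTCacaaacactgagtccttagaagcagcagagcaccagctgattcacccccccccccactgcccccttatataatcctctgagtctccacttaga
Ifit1: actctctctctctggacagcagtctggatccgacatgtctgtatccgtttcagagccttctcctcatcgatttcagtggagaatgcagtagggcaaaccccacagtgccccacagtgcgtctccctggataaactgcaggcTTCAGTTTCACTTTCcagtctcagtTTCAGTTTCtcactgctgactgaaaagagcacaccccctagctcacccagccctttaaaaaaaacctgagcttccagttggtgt
Rsad2: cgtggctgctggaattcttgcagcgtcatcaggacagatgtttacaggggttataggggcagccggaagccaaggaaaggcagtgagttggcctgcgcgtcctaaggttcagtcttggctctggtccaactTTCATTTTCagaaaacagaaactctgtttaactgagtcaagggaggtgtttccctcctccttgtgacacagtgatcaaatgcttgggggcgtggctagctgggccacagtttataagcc
Oas3: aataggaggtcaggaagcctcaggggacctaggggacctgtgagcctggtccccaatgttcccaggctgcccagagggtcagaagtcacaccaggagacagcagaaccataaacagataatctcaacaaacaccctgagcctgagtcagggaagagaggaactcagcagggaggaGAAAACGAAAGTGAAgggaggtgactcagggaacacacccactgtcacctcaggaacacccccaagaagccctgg
Ifit3 and Ifit1 held 3 matches each, Oas3 held 2 that overlap and Rsad2 held 1. A match is a stretch of letters and does not show that a factor was bound.

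More genes of alveolar macrophages fell than rose, and most of those that fell agreed in both genotypes. Of 26 measured markers 15 fell and 2 rose, and 12 (46.2%) agreed, the highest share of the 40 lists examined. Among all genes 9.94% fell, 6.38% rose and 8.49% agreed. The median shared change of the list was -0.86, with -0.59 in wildtype and -0.87 in IFNAR-/-. No member was called different between genotypes by the interaction contrast, which among 26 markers is near the 2.48% of all genes. Without both arrays that stand apart 2 members differed. The median level of the list lay between -0.07 and 0.47 in wildtype day 7 arrays and between -0.62 and -0.35 at day 14. In IFNAR-/- arrays it lay between 0.43 and 0.67 at day 7 and between -0.44 and 0.04 at day 14. In these bulk samples fewer cells of a type and less RNA of its genes per cell cannot be told apart.

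Siglecf, the surface lectin that marks alveolar macrophages and eosinophils, was 0.67, -0.06 and 0.82 in wildtype day 7 mice and -0.98, -2.62 and -1.59 at day 14. The IFNAR-/- arrays read 1.31, 0.94 and 1.17 on day 7 and 0.05, -1.73 and -1.22 on day 14. The groups of each genotype were separate, with IFNAR-/- day 14 mouse 1 close to wildtype day 7 mouse 2. It fell by 2.16 ± 0.33 (SE), 4.46-fold, and the falls of -2.21 and -2.11 differed by 0.10 (95% interval -1.35 to 1.54). Pparg, the nuclear receptor required for alveolar macrophage development, fell by 1.36 ± 0.24, from 0.68, -0.20 and 1.21 to -0.47, -0.89 and -0.41 in wildtype and from 1.20, 0.90 and 1.31 to 0.17, -0.74 and -0.70 in IFNAR-/-. Their limma adjusted p were 0.00162 and 0.00316 by Benjamini-Hochberg.

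The largest falls of the list were those of genes for lipid binding and storage and of a keratin. Cidec, a protein of lipid droplets, was 0.36, -0.09 and 1.14 in wildtype day 7 mice and -3.04, -3.01 and -2.92 at day 14. Without the receptor the values were 2.16, 2.17 and 2.57 on day 7, then 0.08, -2.17 and -2.15 on day 14. IFNAR-/- day 14 mouse 1 lay within the range of wildtype day 7 mice, as it did for Krt19, and for Fabp1 and Marco it lay above that range, while the other 2 mice of its group were lower. Cidec fell by 3.58 ± 0.36 (SE). The fatty acid carrier Fabp1 fell by 3.58 ± 0.53 on 2 probe sets, and Krt19, which is also in the epithelial list, fell by 3.57 ± 0.39. The scavenger receptor Marco fell by 2.74 ± 0.49, and the lipase Lpl by 1.84 ± 0.19.

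Other genes of the list did not follow. Car4 fell by 0.95 ± 0.21 (SE) over both genotypes with changes of -1.73 in wildtype and -0.16 in IFNAR-/- and no agreement. Fabp4 changed by 0.41 in wildtype and -2.73 in IFNAR-/- and did not pass. Bhlhe40, a transcription factor of these cells, and Slc7a2 were the 2 that rose, by 0.72 ± 0.13 and 0.58 ± 0.12. Itgax, which encodes CD11c itself, had a shared value of -0.11 ± 0.09 that did not pass (limma, Benjamini-Hochberg adjusted p 0.408), with all 12 arrays between -0.28 and 0.25. Without both arrays high in structural markers the list had 14 falls and 3 rises.

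**Figure D3:**
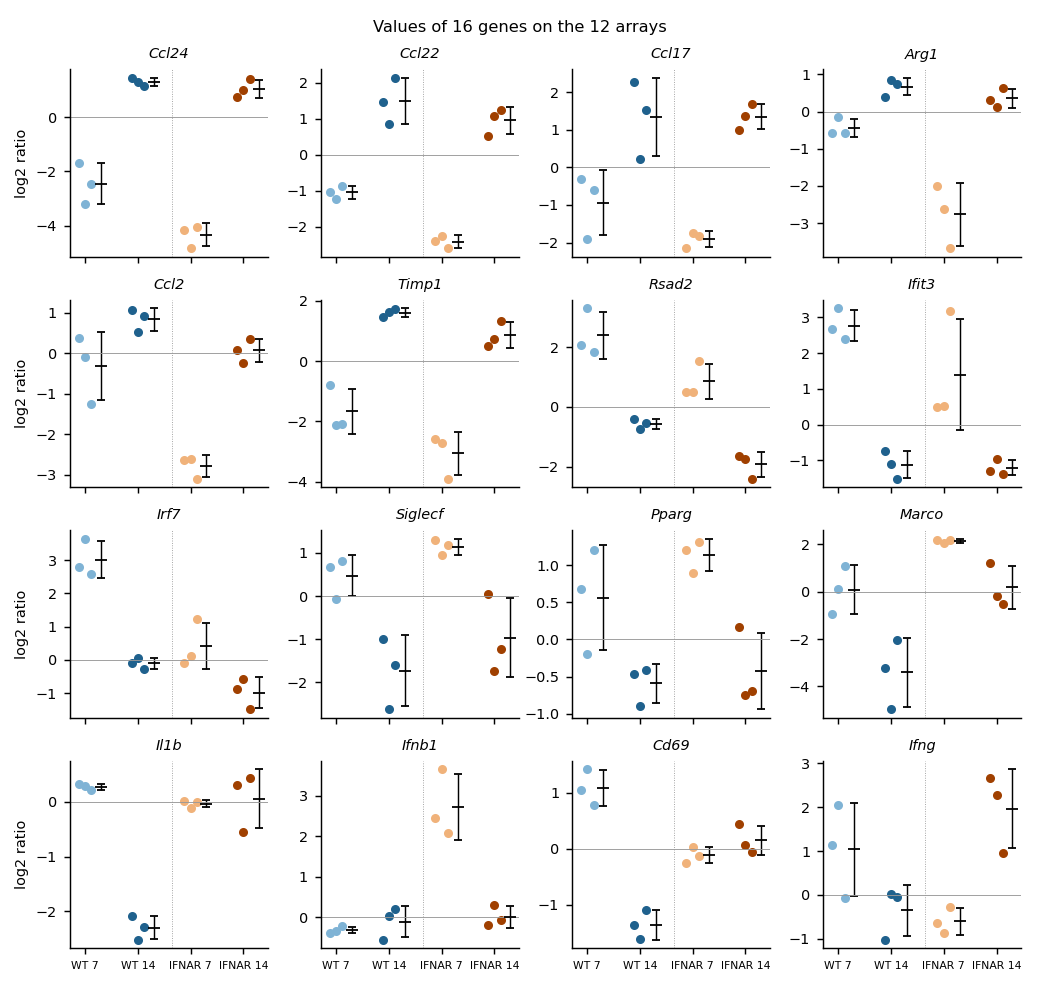
Log2 ratio of 16 genes on the 12 arrays, 1 dot per mouse, with the mean and SD of each group of 3 as black bars; WT is wildtype, IFNAR is IFNAR-/-, and 7 and 14 are days. The chemokines, Arg1 and Timp1 rise and the interferon and macrophage genes fall in both genotypes, Siglecf with changes of -2.21 and -2.11, while Il1b, Ifnb1, Cd69 and Ifng in the lowest row differ between genotypes.

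Of 20 measured transcription factors of macrophages and colony-stimulating factor receptors 3 rose, 7 fell and 10 did not pass, and 5 agreed. Among all genes 6.38% rose, 9.94% fell and 8.49% agreed. Without both arrays high in structural markers 2 of the 20 rose and 4 fell. Spi1, the factor PU.1 that specifies myeloid cells, fell by 0.50 ± 0.10 (SE), with -0.48 in wildtype and -0.51 in IFNAR-/-, and Rara, a retinoic acid receptor, by 0.92 ± 0.16. Irf5, a factor tied to inflammatory macrophages, rose by 0.45 ± 0.07 with agreement, and Irf4, which macrophages use in alternative activation, by 1.12 ± 0.25 without it. A probe set of Irf5 changed by -0.07 in wildtype and 0.95 in IFNAR-/-, and the other by 0.74 and 0.17. The agreement of Irf5 is thus that of their average, not of each probe set. Batf3, needed by cross-presenting dendritic cells, rose by 1.44 ± 0.15. It went from -0.20, -0.88 and -0.10 to 1.05, 0.53 and 0.54 in wildtype and from -1.64, -1.44 and -1.52 to 0.08, 0.45 and 0.22 in IFNAR-/-. Of 18 measured markers of conventional dendritic cells, Batf3 among them, 2 rose and 1 fell, where 16.3% of all genes changed. The shared change lay below 0 for 12 of the 18, and the list medians were -0.61 in wildtype and 0.50 in IFNAR-/-. Cdh1, the adhesion protein E-cadherin, rose by 1.45 ± 0.24 in both genotypes, and Prdm1, the factor Blimp-1, fell by 1.45 ± 0.22. Cdh1 was named from the list of lung epithelial markers, where 18 of 22 shared changes lay below 0.

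Several genes of lipid use fell and several of glycolysis rose. Of 22 measured targets of PPAR factors and genes of fatty acid oxidation 12 fell and 10 did not pass, where 9.94% of all genes fell. Agreement was met by 5 (22.7%), against 8.49% of all genes. The median was -0.60 for the shared change, -0.13 in wildtype and -1.02 in IFNAR-/-. Of the list 4 members differed between genotypes, where 2.48% of all genes did, or 1 without both arrays high in structural markers. Acot1, a thioesterase for long-chain acyl-CoA, was 0.19, 0.64 and 1.72 in wildtype day 7 mice and -0.85, -0.23 and -0.61 at day 14. Its day 7 values in IFNAR-/- were 2.12, 2.07 and 2.81, and its day 14 values were -0.30, -0.38 and -0.29. The day 14 groups overlapped and IFNAR-/- day 7 was the highest group. It fell by 2.03 ± 0.24 (SE), 4.09-fold (limma, Benjamini-Hochberg adjusted p 0.000429).

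Cpt1a, which brings fatty acids into mitochondria, fell by 0.98 ± 0.14 (SE), and Lipa, the acid lipase of lysosomes, by 1.13 ± 0.17. Acaa1b, a thiolase of peroxisomes, had the largest agreeing fall of all genes: it fell by 4.02 ± 0.48, from 0.10, -0.10 and 2.10 to -1.66, -1.93 and -0.91 in wildtype and from 4.63, 4.76 and 5.10 to 0.58, -1.68 and -1.95 in IFNAR-/-. Ech1 was called over both genotypes at -0.78 ± 0.11, yet it was -0.12 in wildtype and -1.44 in IFNAR-/-, which differed (limma, Benjamini-Hochberg adjusted p 0.0163, and 0.196 with the 5' over 3' signal in the model). Among 16 genes of cholesterol efflux and the LXR receptors 7 fell and 1 rose, and 4 agreed. Of all genes 9.94% fell, 6.38% rose and 8.49% agreed. The 4 agreeing genes included Nr1h3, the receptor LXR alpha, which fell by 0.82 ± 0.17, and its target Mylip, by 1.16 ± 0.20. Cholesterol synthesis and uptake gave no call among 23 measured genes in limma after Benjamini-Hochberg, with 2 rises and 2 falls at an unadjusted p under 0.05. Of the 23, 22 lay below 0 in wildtype and 8 in IFNAR-/-, with medians of -0.39 and 0.29. By the interaction contrast 1 member differed between genotypes.

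Of 19 measured genes of glycolysis and gluconeogenesis 9 rose and 10 did not pass, where 6.38% of all genes rose. Agreement was met by 3 (15.8%), against 8.49% of all genes. The median was 0.44 for the shared change, 0.23 in wildtype and 1.02 in IFNAR-/-. Hk2, a hexokinase, rose by 1.07 ± 0.18 (SE), from -0.22, 0.05 and -0.97 to 0.20, 0.32 and 0.28 in wildtype and from -1.28, -0.98 and -1.80 to -0.06, 0.38 and 0.10 in IFNAR-/-. The glycolytic enzyme genes Pgk1 and Ldha rose by 0.91 ± 0.13 and 0.73 ± 0.11, with limma adjusted p of 0.00111 and 0.00152 by Benjamini-Hochberg. Without both arrays high in structural markers 5 rose. Of 33 measured respiratory chain genes 8 rose and 2 fell, and 8 (24.2%) agreed, where 6.38%, 9.94% and 8.49% of all genes did. The sizes were small: Sdhb rose by 0.53 ± 0.08 and Cyc1 by 0.53 ± 0.09, while Ndufa4 and Uqcrc2 fell by 0.75 ± 0.12 each. Without both arrays high in structural markers 3 rose and 2 fell.

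Lysosomal and metal-handling genes gave smaller agreeing changes. Of 29 measured lysosomal proteases and proton pump subunits 8 fell and 1 rose, where 9.94% and 6.38% of all genes did. Agreement was met by 6 (20.7%), against 8.49% of all genes. Among the 6 that agreed, Ctsd, the protease cathepsin D, fell by 0.60 ± 0.09 (SE) and the pump subunit Atp6v0d2 by 0.69 ± 0.13. After adding the poly-A signal to the model 2 of that list fell and Atp6v0d2 did not pass. The metallothioneins Mt1 and Mt2, which bind zinc, fell by 0.90 ± 0.13 and 1.91 ± 0.29. Mt2 was 0.75, -0.05 and 0.27 in wildtype day 7 mice and -2.16, -2.20 and -1.04 at day 14, against 1.62, 1.54 and 0.50 and then 0.05, -1.10 and -0.37 in IFNAR-/- mice. Hmox1, the haem-degrading enzyme, rose by 0.95 ± 0.12 and Tfrc, the transferrin receptor, by 1.10 ± 0.20, while Fth1, the heavy chain of ferritin, fell by 0.41 ± 0.07. The glutathione transferase Gstm1 fell by 1.35 ± 0.20, and Rora, a nuclear receptor of the circadian clock, by 0.98 ± 0.11.

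Among 26 measured cytokines 10 fell, 3 rose and 13 did not pass, and 4 (15.4%) agreed. Among all genes 9.94% fell, 6.38% rose and 8.49% agreed. Il18, whose product drives interferon gamma release, was 0.27, -0.16 and 0.58 in wildtype day 7 mice and -2.50, -3.41 and -2.88 at day 14. IFNAR-/- mice had 1.46, 1.54 and 1.74 on day 7 and 0.14, -1.37 and -1.67 on day 14. It fell by 2.85 ± 0.28 (SE), 7.23-fold, with -3.16 in wildtype and -2.55 in IFNAR-/-. Tnf, the tumour necrosis factor gene, fell by 1.89 ± 0.29, with -2.57 in wildtype and -1.22 in IFNAR-/-. Il12a, a subunit of interleukin 12, was called over both genotypes at 2.13 ± 0.32 without agreement, since the wildtype arrays overlapped.

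Of 23 genes of fungal recognition 6 fell, 1 rose and 16 did not pass, and 5 (21.7%) agreed. Of all genes 9.94% fell, 6.38% rose and 8.49% agreed. Tlr2, a receptor for microbial lipoproteins, was 0.21, 0.23 and 0.09 in wildtype day 7 mice and -2.56, -1.98 and -1.53 at day 14. For IFNAR-/- the day 7 arrays gave 0.43, 0.41 and 0.31 and the day 14 arrays -0.11, -0.97 and -0.60, so the day 7 groups were tight and the day 14 groups lower. It fell by 1.57 ± 0.17 (SE; limma, Benjamini-Hochberg adjusted p 0.000356). Clec4n, the lectin Dectin-2, fell by 0.95 ± 0.16, and the kinase gene Syk, through which these lectins signal, by 0.77 ± 0.13 with 1 of its 4 probe sets at -0.06. Clec7a, the beta-glucan receptor Dectin-1, was called at 0.26 ± 0.06, but it changed by -0.23 in wildtype and 0.74 in IFNAR-/-, in opposite directions and with a difference that passed (limma, Benjamini-Hochberg adjusted p 0.00646, and 0.108 with the 5' over 3' signal in the model).

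Receptors for antibody and complement moved in different directions. Fcgr2b, the inhibitory Fc receptor, was -0.39, -0.15 and -0.47 in wildtype day 7 mice and 0.41, 0.37 and 0.38 at day 14. The IFNAR-/- arrays read -1.37, -1.46 and -1.36 on day 7 and 0.14, 0.22 and 0.36 on day 14, with little spread within any group. It rose by 1.18 ± 0.07 (SE; limma, Benjamini-Hochberg adjusted p 3.73e-05), on 4 of its 5 probe sets, and by 0.91 more in IFNAR-/- (adjusted p of 0.0134, and 0.196 with the 5' over 3' signal in the model). Fcgrt, the neonatal Fc receptor, fell by 1.47 ± 0.25. C5ar1, the receptor of the complement fragment C5a, fell by 2.03 ± 0.15, with -0.77 in wildtype and -3.30 in IFNAR-/-, which differed (adjusted p of 0.00542, and 0.0782 with the 5' over 3' signal in the model).

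Immediate-early genes, which cells switch on within minutes of a stimulus, fell, with larger changes in wildtype. Of 26 measured members 17 fell and 9 did not pass, where 9.94% of all genes fell. Agreement was met by 6 (23.1%), against 8.49% of all genes. The median was -0.59 for the shared change, -1.09 in wildtype and -0.31 in IFNAR-/-. Of the list 7 members differed between genotypes, where 2.48% of all genes did. That number was 2 without both arrays high in structural markers and 13 without both arrays that stand apart. Fosb, part of the AP-1 factor, was 0.65, 0.16 and 0.05 in wildtype day 7 mice and -2.37, -3.12 and -3.13 at day 14. Without the receptor the values were 0.03, 0.03 and 0.06 on day 7, then -0.07, -1.69 and -0.04 on day 14. The IFNAR-/- groups met the rule of no overlap by a narrow margin in 2 of 3 mice, and the change differed by 2.53 ± 0.54 (SE; limma, Benjamini-Hochberg adjusted p 0.0373, and 0.347 with the 5' over 3' signal in the model). Btg2 and Ier5 fell in both genotypes, by 1.59 ± 0.18 and 1.15 ± 0.14. Nr4a1 was called at -2.18 ± 0.32 with -3.77 in wildtype and -0.58 in IFNAR-/-, and it did not agree. The 5' over 3' control signal was lower in wildtype day 14 arrays as well, and with it in the model 16 members fell over both genotypes while the 7 differences between genotypes did not pass.

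Markers of lung structural cells were high on single day 7 arrays, and their falls carry that spread. Of 22 measured epithelial markers 5 fell and 2 rose, and 6 (27.3%) agreed. Of 17 endothelial markers 3 fell and 2 (11.8%) agreed, and of 17 fibroblast and smooth muscle markers 1 fell and agreed (5.88%). Among all genes 9.94% fell and 8.49% agreed, so the endothelial and fibroblast shares of agreement lay near that of all genes. The medians of the shared changes of the epithelial, endothelial and fibroblast lists were -0.81, -1.08 and -0.53. Without wildtype day 7 mouse 1 and IFNAR-/- day 7 mouse 3 the medians were -0.17, -0.32 and -0.25, all closer to 0. In that fit 5 epithelial markers fell and 1 rose, and 5 endothelial markers fell and 1 rose. After adding the poly-A signal to the model the medians were -1.88, -2.17 and -1.32, with 16, 13 and 13 falls.

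Cyp2f2, an enzyme of club cells in the airway, was 4.89, 2.53 and 0.00 in wildtype day 7 mice and -0.80, -0.54 and -0.94 at day 14. Its day 7 values in IFNAR-/- were 2.01, 1.06 and 5.71, and its day 14 values were -0.57, -0.02 and -0.80. The highest values were those of the pair of arrays just named, and all day 7 arrays lay above the day 14 arrays of their genotype. It fell by 3.31 ± 0.85 (SE; limma, Benjamini-Hochberg adjusted p 0.0229), and did not pass with that 5' over 3' signal in the model. The club cell secretoglobins Scgb1a1 and Scgb3a2 fell by 2.88 ± 0.62 and 3.67 ± 0.95, and Scgb3a2 did not pass without IFNAR-/- day 14 mouse 3 (-3.48, adjusted p of 0.0518) or without both arrays high in structural markers (-2.41, adjusted p of 0.053), nor with the 5' over 3' signal in the model (-3.40, adjusted p of 0.0594). Aldh1a1, which makes retinoic acid, followed the same arrays, at 4.79 and 5.56, and fell by 3.33 ± 0.76. The part of cells other than CD11c+ cells in these values was not tested.

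**Figure D4:**
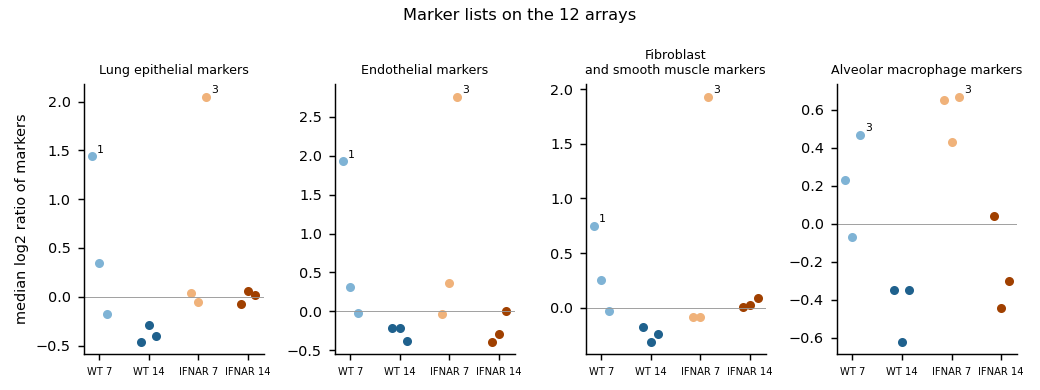
Median log2 ratio of the markers of 4 cell types on each array, 1 dot per mouse, with the mouse number beside the highest day 7 array of each genotype; WT is wildtype, IFNAR is IFNAR-/-, and 7 and 14 are days. In the 3 panels of structural cells wildtype day 7 mouse 1 and IFNAR-/- day 7 mouse 3 stand above the rest (1.44 and 2.05 for epithelial markers), whereas alveolar macrophage markers are lower at day 14 on all arrays of a genotype.

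Lymphocyte and antigen presentation genes had medians on opposite sides of 0 in the genotypes. For 20 measured T cell markers the median change was -0.43 in wildtype and 0.80 in IFNAR-/-, and for 15 markers of natural killer and cytotoxic cells it was -0.76 and 1.76. Where 2.48% of all genes differed between genotypes, 8 members did in each of these lists. So did 8 of 13 genes of MHC class II presentation, with medians of -0.22 and 0.67. With the 5' over 3' signal in the model these differences did not pass, and without both arrays high in structural markers 2 T cell, 4 cytotoxic and 7 MHC class II genes differed. The median level of T cell markers lay between 0.16 and 0.77 in IFNAR-/- day 14 arrays and between -0.45 and -0.23 in IFNAR-/- day 7 arrays, against -0.32 to 0.01 and -0.05 to 0.42 in wildtype. Cd2, a T cell adhesion protein, was an exception, falling by 2.13 ± 0.29 (SE) in both genotypes, and so was Ifi30, a lysosomal thiol reductase for antigens, rising by 0.52 ± 0.08. The part of lymphocytes in these values was not tested. Cd4 had a shared value of 0.05 ± 0.12 and did not pass.

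The cell cycle list had medians of -0.51 in wildtype and 0.26 in IFNAR-/-, but 1 of 39 members differed between genotypes past the threshold, near the 2.48% of all genes, or 9 without both arrays that stand apart. It had 37 of 39 members below 0 in wildtype and 7 in IFNAR-/-. By the shared test of limma after Benjamini-Hochberg 3 members rose and 1 fell, with 0 agreeing, and 4 rose and 3 fell at an unadjusted p under 0.05. Of all genes 6.38% rose, 9.94% fell and 8.49% agreed after that adjustment. With the 5' over 3' signal in the model 0 members passed. Mki67, the marker of dividing cells, had a shared value of -0.39 ± 0.21. Cytosolic ribosomal protein genes gave no call among 31 measured genes in limma after Benjamini-Hochberg, with 3 rises and no fall at an unadjusted p under 0.05.

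**Figure D5:**
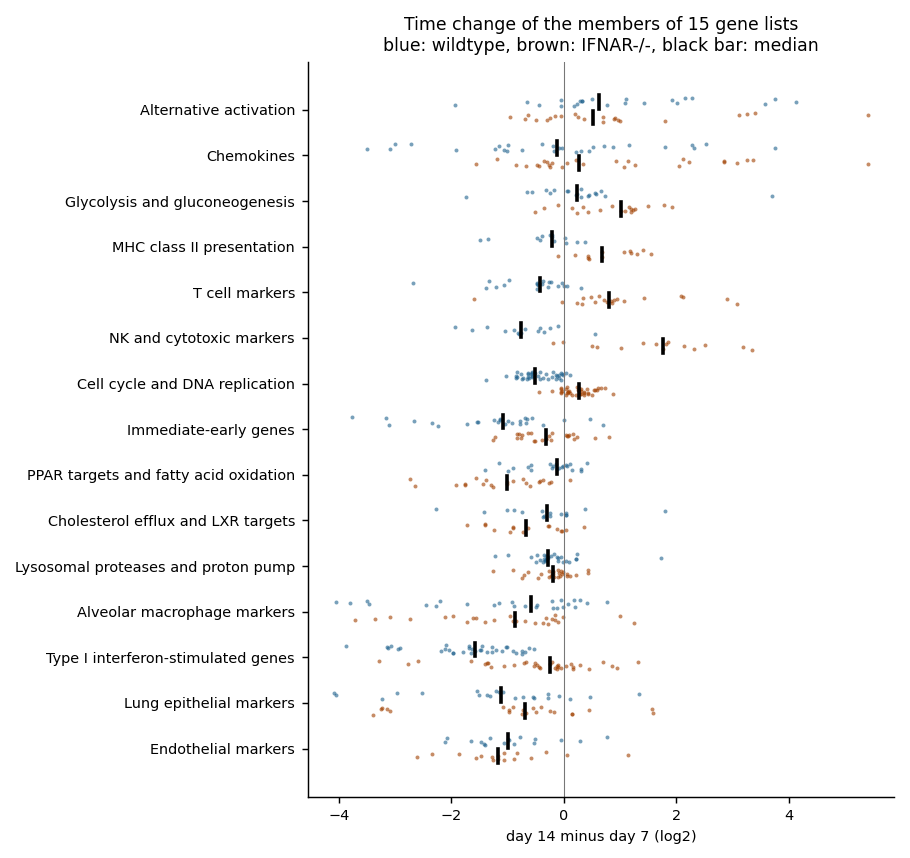
Day 14 minus day 7 (log2) of each measured member of 15 gene lists, in wildtype (blue) and IFNAR-/- (brown), with the median of each as a black bar. Interferon-stimulated genes (-1.58 and -0.25) and alveolar macrophage markers (-0.59 and -0.87) lie below 0 in both genotypes, alternative activation (0.63 and 0.52) lies above it, and T cell, cytotoxic, MHC class II and cell cycle lists have medians on opposite sides.

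Probe sets were also compared with the gene values. Those values are averages of the same probe sets, so a shared sign is partly built in and is no separate check of agreement between genotypes. Of the 1544 agreeing genes 668 were measured by 1 probe set and 876 by several. In 724 of the 876 all probe sets had the same sign, and in 2 a probe set called by itself went the other way. A further 10092 probe sets without a single gene symbol were fitted, and 564 of them were called. That is a smaller share than the 5307 of all 45037 probe sets called in the same fit. Of the 140 named genes called over both genotypes 118 kept their call whichever array was left out, and 96 kept it in every alternative fit. With the poly-A signal in the model Spi1, Irf4, Nr1h3, Ccl7, Ccr2, Klf4, Stat6, Car4, Clec7a and the shared value of Ifnb1 did not pass either. Genes named from the lists beyond the rule for named genes, namely Ccl7, Ccl8, Ccr2, Cxcl1, Clec10a, Matk, Klf4, Stat6, Retnla, Chil3, Cd163, Ifit1, Ddx58, Car4, Fabp4, Slc7a2 and Clec7a, and the promoters shown were chosen after their values were seen.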

How the data were processed

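Total RNA of CD11c+ lung cells was hybridised to Affymetrix mouse arrays, 1 array per mouse, 12 in all. The authors deposited 1 table of ratios for 45101 probe sets; RMA is named in the submitters' processing notes, with no version, and the step that made ratios is not given in the sources used here. The median of a probe set over the 12 arrays was within 0.02 of 1 for 100% of probe sets, so the deposited ratios keep no brightness, and no filter on dim probes or bound against background could be set. The ratios were turned into log2 values. Control probe sets (64), those with no gene symbol (9160) and those with several (932) were left out of the gene table, and the other 34945 were averaged per symbol into 18193 genes, 9183 of them from 1 probe set; 34741 probe sets were matched by Entrez ID to GRCm38.p6.

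The fit was limma 3.58.1 in R 4.3.3 (lmFit and eBayes) with 4 group means; adjusted p are Benjamini-Hochberg values over the 18193 genes. The interaction contrast is the IFNAR-/- change minus the wildtype change, with 95% intervals. The number of arrays, 3 per group, limits the precision. Data were simulated for the shared contrast with 18193 genes, 17993 of them unchanged. Of the changes put in, 60% of those of 0.5, 86% of 1, 96% of 2 and 98% of 3 (log2) were called. Each change was equal in both genotypes, with independent noise on each array. The shares describe that setting and are not rates for these data.

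The genes named are the 12 largest agreeing rises and 12 largest agreeing falls, up to 4 called members with the lowest p of each of 40 gene lists, 9 genes named whatever their values (Itgax, Ifnar1, Ifnb1, Ifng, Arg1, Nos2, H2-Ab1, Mki67 and Cd4), and the 6 genes of lowest interaction p with opposite signs; Y-linked genes and Xist were left out of these choices. The members and the lists were chosen with earlier results of these data known. Alternatives were other scalings, other choices of probe set, filters, priors, array weights, covariates for control signals, a block for mouse number, an additive fit and leaving out arrays.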

Additional observations from a re-analysis of the deposited data

Results flagged for a closer look

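The change from day 7 to day 14 differed between the genotypes, by the interaction contrast of limma after Benjamini-Hochberg, for 451 genes. Values below are the IFNAR-/- change minus the wildtype change on the log2 scale, with 3 arrays per group. Il1b, the gene of interleukin 1 beta, differed by 2.66, with arrays at 0.32, 0.28 and 0.21 in wildtype day 7 mice, -2.08, -2.51 and -2.29 at day 14, and all IFNAR-/- arrays between -0.56 and 0.42. Ifnb1 differed by -2.92, falling in IFNAR-/- alone by its single-genotype values of -2.71 against 0.21. Ifng, the gene of interferon gamma, differed by 3.96, from -1.39 in wildtype and 2.57 in IFNAR-/-. H2-Ab1, an MHC class II chain, differed by 1.46, from -0.39 and 1.07. Cd69, an early activation marker of lymphocytes, differed by 2.70, from -2.43 and 0.27. Adamtsl4 differed by -3.22, from 0.18 and -3.05, with IFNAR-/- day 7 arrays at 2.78, 3.02 and 2.54 and all others between -0.55 and 0.21. Zfp760 differed by -1.76 and Ptger2, a prostaglandin E receptor, by -2.14. Ms4a4b differed by 3.31, on 1 of its 2 probe sets. With the 5' over 3' control signal in the model, which was lower in wildtype day 14 than in wildtype day 7 arrays, Adamtsl4 (-2.97) and Cd69 (3.04) passed and the other genes named here did not, with limma adjusted p of 0.231 for Ifng, 0.181 for H2-Ab1 and 0.196 for Ifnb1.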

How the results depend on the processing

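Counts are given in the order shared, wildtype, IFNAR-/-, difference between genotypes. With array weights they were 4778, 2688, 4576 and 1765, and with every probe set tested by itself 5307, 2573, 3906 and 926, with 2737 agreeing. Asking also for a 2-fold change gave 483, 484, 705 and 296, with 334 agreeing. Without both arrays high in structural markers they were 1849, 820, 1177 and 200. The poly-A covariate gave 1939 shared, 856 wildtype and 290 differing calls, with 905 agreeing, and the 5' over 3' covariate gave 154 wildtype and 3 differing calls. Without both arrays that stand apart there were 2428 wildtype and 1136 IFNAR-/- calls. The cause was not tested. Leaving out 1 array gave 2088 to 3283, 716 to 2169, 1094 to 2520 and 138 to 485, with 1341 to 1846 agreeing.

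Day 7 and day 14 mice were different animals, so mouse numbers do not pair them as animals. Correlations of deviations between same-numbered mice were -0.057, 0.218 and 0.034 in wildtype and 0.093, 0.085 and -0.021 in IFNAR-/-. The highest with other numbers were 0.07, -0.072 and 0.118 in wildtype and 0.099, -0.056 and 0.014 in IFNAR-/-. With 3 arrays per group these values cannot decide whether same-numbered arrays shared a processing effect. With mouse number as a replicate block the counts were 2743, 1228, 1974 and 325, with 1440 agreeing. Directions turned for Xbp1 with the probe set of largest SD (0.50), for Ifnar1 without IFNAR-/- day 7 mouse 2 (-0.01), and for Cd4 with array weights (-0.07), without both arrays that stand apart (-0.07), without both arrays high in structural markers (-0.01) and without IFNAR-/- day 14 mouse 2 (-0.05); neither Ifnar1 nor Cd4 was called. Leaving out 1 array gave -0.01 to 0.36 for Ifnar1 and -0.05 to 0.13 for Cd4.

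With the 5' over 3' covariate the difference between genotypes was no longer called for Il1b (2.54, limma adjusted p of 0.1), Zfp760 (-1.57), Ptger2 (-1.92), Ms4a4b (2.74), Ifng (3.91), H2-Ab1 (1.19) and Ifnb1 (-1.87), nor for any gene of the 40 lists, and with a trended and robust prior for Adamtsl4 (-3.22). Without both arrays high in structural markers Cxcl2, Oas3, Fosb, Ech1 and Ifng no longer differed past the threshold. The ratios keep no brightness, so what signal over background limits is unknown.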
